A study of Mus musculus with 4 samples.

Results

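The cluster of Mir132 and Mir212 makes 4 mature microRNAs (miRNAs): miR-132-3p, miR-132-5p, miR-212-3p and miR-212-5p. They were chosen by name, as both arms of both hairpins of the cluster, from the 1078 mature miRNAs with deposited values, and all 4 had a value in every library. Small RNA came from 4 cell populations of C57BL/6J mice with 1 library each, so there is no replicate, no test and no p-value. Haematopoietic stem cells (HSC) were bone marrow cells sorted as lineage negative, c-Kit positive and Sca1 positive. Immature dendritic cells (imDC) grew from bone marrow of mice 5 to 6 weeks old over 6 days in GM-CSF at 10 ng/mL with IL-4 at 1 ng/mL. For mature dendritic cells (maDC) LPS at 10 ng/mL joined this culture from day 4, and the cells were taken at day 8 with CD11c beads. The regulatory population (DCreg) was made from maDC left on endothelial-like stroma of the spleen for at least 7 days, lifted with trypsin and EDTA and taken on CD11c beads again, and the design describes them as making IL-10 and nitric oxide. All 4 populations were unmodified in genotype as far as the labels say, and the sources used here do not give the number of mice behind each library.

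In mammals miR-132 and miR-212 are cut from a shared primary transcript whose transcription is driven by the factor CREB, and the cluster is best known from neurons. In myeloid cells the cluster is known to be induced by LPS through Toll-like receptor signalling. Known targets of miR-132-3p include acetylcholinesterase and, in human cells, the transcriptional co-activator p300. In mouse HSC the cluster is known to act on FOXO3, a regulator of stem cell maintenance.

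The mature sequences are shown because the arms differ in the seed (bases 2 to 8, in capitals), the stretch that pairs with target mRNAs. They are given 5′ to 3′ as in RefSeq (GRCm38.p6).
miR-132-3p: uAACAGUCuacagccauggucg
miR-212-3p: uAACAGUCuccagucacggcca
miR-132-5p: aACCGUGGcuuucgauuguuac
miR-212-5p: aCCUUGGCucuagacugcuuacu
Both 3p arms carry the seed AACAGUC, which no other mature miRNA of the table has. They are identical at 17 of 22 positions, and their first difference is at base 10, outside the seed. The 5p arms are identical at 9 of 22 positions, and each has a seed found in no other miRNA of the table.

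The hairpins lie on the plus strand of chromosome 11, Mir212 at chr11:75173388-75173478 and Mir132 at chr11:75173682-75173747 (GRCm38.p6), with 203 bases between them. Both are inside intron 1 of the gene 1700016P03Rik in the GENCODE M21 annotation, which has 3 exons. The hairpins are shown with their mature arms in capitals, since the arms and the loop between them are compared later.
Mir132: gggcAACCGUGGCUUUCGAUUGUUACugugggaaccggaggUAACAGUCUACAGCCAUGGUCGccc
Mir212: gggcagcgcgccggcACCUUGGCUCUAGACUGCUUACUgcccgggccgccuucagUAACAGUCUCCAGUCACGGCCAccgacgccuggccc

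Levels are deposited values in parts per 1000000 (ppm) of the library's summed deposited miRNA values, which were 4226458 in the HSC library, 5251069 in imDC, 4475569 in maDC and 2725948 in DCreg. Reads recounted from the deposited sequence lists stand beside them, with exact (Clopper-Pearson) 95% intervals that cover counting error only. All 7 dendritic and myeloid markers were above 0 in every library, but at very different levels. miR-142-5p lay between 9377 and 18959 ppm, and miR-511-5p only between 0.894 and 5.33 ppm. miR-155-5p was at 47.6 ppm in HSC, and miR-142-3p at 94.6 ppm in DCreg. The sum of these markers was highest in HSC, at 25294.5 ppm, so it did not set the dendritic libraries apart. The 4 erythroid markers summed to 15231 ppm in HSC and to at most 19.4 ppm in the dendritic libraries, where miR-144-5p was at 0 in maDC and DCreg. The 4 stromal markers summed to 1076 ppm in HSC, 61.1 ppm in imDC, 177 ppm in maDC and 254 ppm in DCreg. The 4 neuronal markers in the table summed to between 450 and 2353 ppm, highest in HSC, and miR-128-3p held most of it.

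The cluster as a whole stood at 28.4 ppm in HSC, 896 ppm in imDC, 785 ppm in maDC and 139 ppm in DCreg. It was thus high in the immature and the mature dendritic cells, much lower in the regulatory ones and lowest in the stem cells. Recounted reads numbered 79, 3266, 2422 and 264, or 15.2 ppm (12.0 to 18.9) in HSC, 620 ppm (599 to 641) in imDC, 438 ppm (421 to 456) in maDC and 67.1 ppm (59.3 to 75.7) in DCreg of all recounted miRNA reads. No interval of the cluster overlapped another. In bulk samples such as these, fewer expressing cells and less RNA per cell cannot be told apart.

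miR-132-3p, the dominant arm of Mir132, was at 14.4 ppm in HSC, 455 ppm in imDC, 374 ppm in maDC and 67.9 ppm in DCreg, with 42, 1727, 1156 and 147 recounted reads. It ranked 291st of all mature miRNAs in HSC, 88th in imDC, 81st in maDC and 131st in DCreg. It was the most abundant member in every library. miR-212-3p, which shares its seed, was at 3.31 ppm in HSC, 174 ppm in imDC, 159 ppm in maDC and 25.3 ppm in DCreg, with 10, 563, 474 and 56 recounted reads. Both 3p arms thus had the same order of libraries, imDC, maDC, DCreg and HSC from high to low.

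miR-212-5p was at 7.57 ppm in HSC, 189 ppm in imDC, 193 ppm in maDC and 15.0 ppm in DCreg, with 21, 753, 647 and 28 recounted reads. Its deposited level was about equal in imDC and maDC, and it was the only member higher in maDC than in imDC. miR-132-5p, the weakest arm in the HSC, imDC and maDC libraries, was at 3.08 ppm in HSC, 77.7 ppm in imDC, 59.9 ppm in maDC and 30.8 ppm in DCreg, with 6, 223, 145 and 33 recounted reads. It never reached 100 ppm, the level a miRNA had to reach in 1 library of a pair to be compared by the fold rule. Over recounted reads, the only neighbouring levels whose intervals overlapped were those of miR-212-5p in DCreg, at 7.12 ppm (4.73 to 10.3), and in HSC, at 4.04 ppm (2.50 to 6.18).

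**Figure D1:**
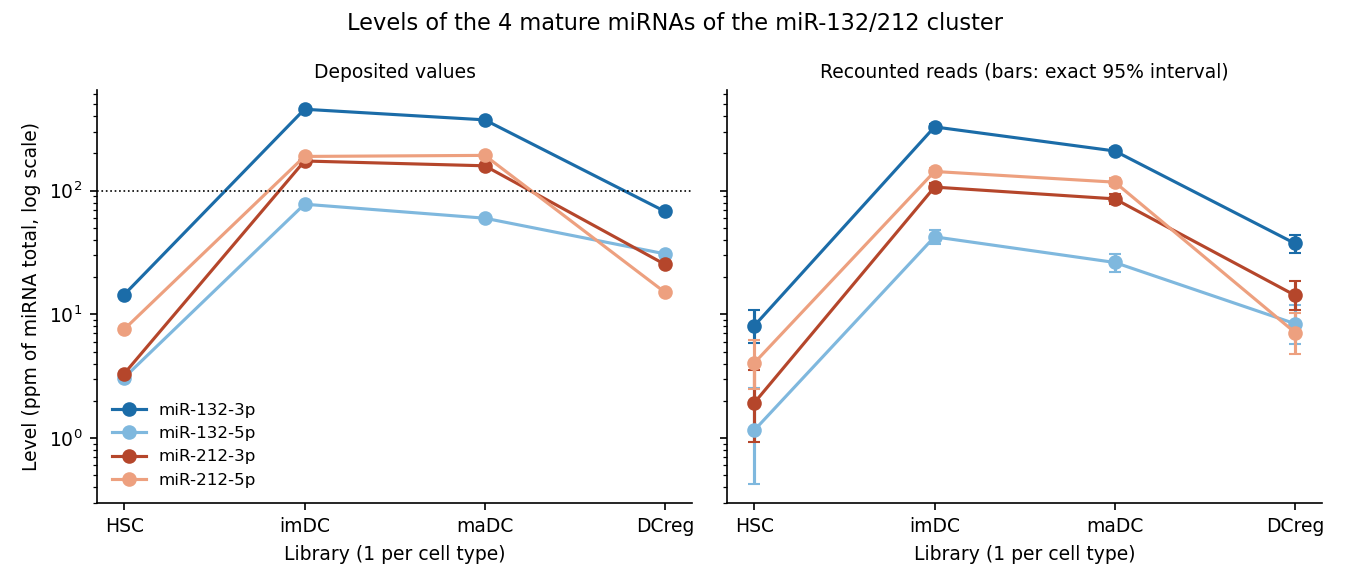
Level of each member in each library, on a log axis in ppm: deposited values, and recounted reads with 95% counting intervals. All 4 members were highest in imDC or maDC, and miR-132-3p, at 455 ppm in imDC, was above the other members throughout.

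The comparison of imDC with HSC asks how far the cluster differs between dendritic cells grown from marrow and a haematopoietic progenitor. All 4 members were at least 24.98-fold higher in imDC by the deposited values. miR-132-3p was 31.5-fold higher (recounted 40.6-fold, 29.9 to 56.5) and miR-212-3p was 52.4-fold higher (recounted 55.5-fold, 30.0 to 116). miR-212-5p was 24.98-fold higher (recounted 35.4-fold, 23.0 to 57.5). miR-132-5p, under the level of 100 ppm in both libraries, was 25.3-fold higher (recounted 36.7-fold, 16.6 to 101). The HSC end of these folds rests on 6 to 42 reads a member, and the wide intervals come from that.

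A miRNA was called when it differed at least 2-fold and reached 100 ppm in 1 of the 2 libraries. Of all 187 miRNAs compared between imDC and HSC, 26.2% were called higher and 28.3% lower. The 3 members that reached 100 ppm, which did so through imDC alone and so had to differ, were called higher and ranked 4th, 6th and 9th from the highest ratio. Over all 4 members the median log2 ratio was 4.79, beside -0.12 over all miRNAs compared. Of the called miRNAs, 49 were higher and 53 lower, a split that became 62 and 40 with trimmed mean of M-values (TMM) scaling, which raised the median of all miRNAs by 0.21 on the log2 scale, and 63 and 39 per all reads. The members' log2 ratios lay between 4.52 and 5.91 under every scaling tried. Erythroid markers differed between the same libraries, as given above. Their part in the difference was not tested.

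maDC, which had received LPS, had about as much of the cluster as imDC. The log2 ratio of maDC to imDC was -0.29 for miR-132-3p, -0.13 for miR-212-3p, -0.37 for miR-132-5p and 0.03 for miR-212-5p. No member was called, whereas 9.38% of the 160 miRNAs compared were called higher and 45.0% lower, and the median over all of them was -0.88. The direction of the small differences depended on the scaling. By recounted reads all 4 members were lower in maDC, miR-132-3p at 0.638 of its imDC level (0.592 to 0.688) and the cluster at 0.707 (0.671 to 0.746). With TMM and with median-of-ratios scaling, which raised the median of all miRNAs by 0.55 and 0.70, all 4 were higher in maDC, by at most 0.73 on the log2 scale. The split of called miRNAs also moved, with 15 higher and 72 lower as deposited, 27 and 46 with TMM, and 30 and 37 with median-of-ratios. maDC and imDC cultures also differed in length and in the selection on CD11c beads, which cannot be told apart from LPS here.

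Against HSC, the mature cells had 25.9-fold more miR-132-3p, 48.0-fold more miR-212-3p, 25.5-fold more miR-212-5p and 19.5-fold more miR-132-5p. Of the 180 miRNAs compared in that pair, 21.7% were called higher and 48.9% lower, a split of 39 and 88 that was 50 and 69 with TMM, which raised the median of all miRNAs by 0.76. The 3 members that reached 100 ppm did so through maDC alone and so had to differ. They were called higher, at ranks 4, 7 and 8 from the highest ratio, which is given as a description. The median over the 4 members was 4.67, beside -0.97 over all miRNAs compared. This comparison and that of imDC share the HSC library.

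In DCreg the cluster was lower than in the maDC they were derived from. miR-132-3p was 5.50-fold lower (recounted 5.60-fold, 4.71 to 6.69), miR-212-3p was 6.28-fold lower (recounted 6.03-fold, 4.56 to 8.10) and miR-212-5p was 12.8-fold lower (recounted 16.5-fold, 11.3 to 24.96). The difference was smallest for miR-132-5p, 1.94-fold lower by the deposited values and 3.13-fold lower (2.13 to 4.72) by recounted reads. Summed over the cluster the level in DCreg was 5.65-fold lower, and 6.53-fold lower (5.75 to 7.44) by recounted reads. The recounted intervals of miR-212-5p and of the other 3 members did not overlap, so the members differed in the size of the difference between these libraries beyond counting error.

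Between DCreg and maDC, 20.3% of the 138 miRNAs compared were called higher and 28.3% lower. The 3 members that reached 100 ppm did so through maDC alone and so had to differ. They were called lower, at ranks 5, 8 and 10 from the lowest ratio, which is given as a description. Over all 4 members the median log2 ratio was -2.55, beside -0.34 over all miRNAs compared. Every member was lower in DCreg under each scaling tried, with log2 ratios between -4.02 and -0.83. Marker miRNAs of other cells also differed between these libraries. The 5 HSC and progenitor markers summed to 2763 ppm in DCreg against 1046 ppm in maDC, with miR-99a-5p at 345 against 8.27 ppm, miR-125b-5p at 363 against 16.1 ppm and miR-126-3p at 0.367 against 1.12 ppm. The 4 stromal markers summed to 254 ppm in DCreg against 177 ppm in maDC, and were split, with miR-143-3p and miR-145-5p higher and miR-199a-3p and miR-214-3p lower in DCreg. The 7 dendritic and myeloid markers summed to 12892 ppm in DCreg against 16721 ppm in maDC, and were split too, with miR-142-5p and miR-155-5p lower and miR-146a-5p and miR-511-3p higher in DCreg. Their part in the difference was not tested.

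Set against imDC, DCreg had 6.71-fold less miR-132-3p, 6.86-fold less miR-212-3p, 12.6-fold less miR-212-5p and 2.52-fold less miR-132-5p. In that pair 16.1% of 168 miRNAs were called higher and 56.0% lower, and the 3 members that reached 100 ppm, through imDC alone, had to differ and were called lower. The median over the 4 members was -2.76, beside -1.25 over all miRNAs compared. miR-132-5p was at -1.33 by the deposited values, close to the median of all miRNAs, but recounted reads put it 5.04-fold lower (3.49 to 7.51). Recounting also made the difference larger for miR-212-5p, 20.1-fold lower (13.8 to 30.4). The split of 27 higher and 94 lower became 33 and 65 with TMM and 34 and 65 with median-of-ratios, which raised the median of all miRNAs by 0.65 and 0.72. All members stayed lower under these scalings. HSC and progenitor markers summed to 2763 ppm in DCreg against 610 ppm in imDC, mostly miR-10a-5p at 2042 against 532 ppm. They were split, with miR-10a-5p, miR-99a-5p and miR-125b-5p higher and miR-196b-5p and miR-126-3p lower in DCreg. Their part in the difference was not tested.

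DCreg still held more of the cluster than HSC. miR-132-3p was 4.70-fold higher (recounted 4.63-fold, 3.26 to 6.68), miR-212-3p was 7.64-fold higher and miR-132-5p was 10.0-fold higher. miR-212-5p was 1.99-fold higher, and its recounted ratio of 1.76 had an interval of 0.965 to 3.26, so a difference was not detectable at this depth. No member reached 100 ppm in either library, and none was therefore compared by the fold rule, under which 19.4% of 175 miRNAs were called higher and 56.0% lower. The split of 34 and 98 became 47 and 73 with TMM, which raised the median of all miRNAs by 0.86, and 45 and 77 with median-of-ratios, which raised it by 0.63. Erythroid markers were at 2.20 ppm in DCreg and 15231 ppm in HSC, and their part in the difference was not tested.

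**Figure D2:**
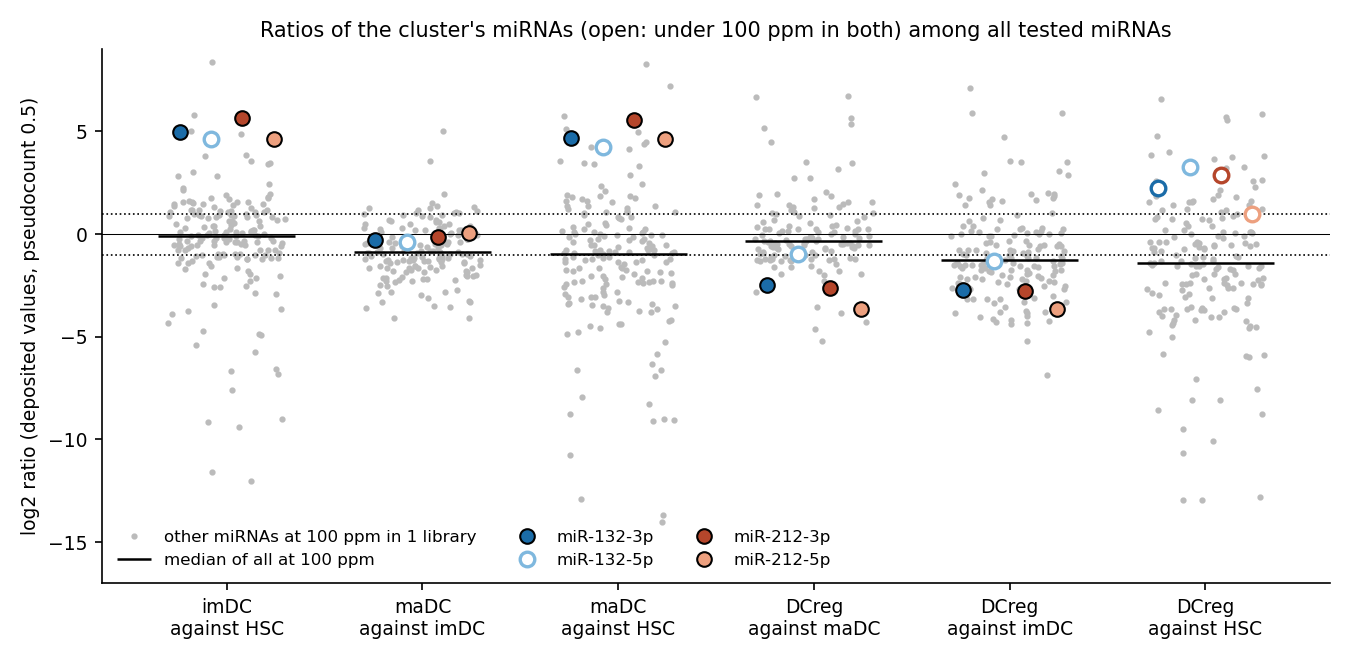
Log2 ratio of the deposited levels in each of the 6 comparisons, for the 4 members (coloured, open where under 100 ppm in both libraries) and for every other miRNA at 100 ppm in 1 of the 2 libraries (grey), with the median of all miRNAs at that level as a black line. Members lie far above the line against HSC, near 0 for maDC against imDC and below the line for DCreg against maDC and imDC, except miR-132-5p, which lies about on the line in DCreg against imDC.

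The miRNAs whose levels followed miR-132-3p most closely were found by the Euclidean distance between centred log2 levels over the 4 libraries, among 197 other miRNAs at 100 ppm in at least 1 library. The nearest was miR-147-3p, at a distance of 0.489, ahead of miR-212-3p at 0.654 and miR-212-5p at 1.00. miR-155-5p followed at 1.09 and miR-365-2-5p at 1.11. By recounted reads the 5 were the same but their order was not, with miR-212-3p nearest at 0.563, miR-147-3p next at 0.909 and miR-212-5p last at 1.21. miR-147-3p was at 28.2 ppm in HSC, 745 ppm in imDC, 589 ppm in maDC and 82.2 ppm in DCreg, and thus above miR-132-3p in every library. miR-155-5p was at 47.6 ppm in HSC, 2609 ppm in imDC, 1651 ppm in maDC and 141 ppm in DCreg. For miR-212-3p the same 5 places were taken by miR-132-3p at 0.654, miR-147-3p at 1.04, miR-155-5p at 1.13, miR-212-5p at 1.35 and miR-365-2-5p at 1.68. By recounted reads miR-155-5p, at 1.27, stood ahead of miR-147-3p, at 1.44, and miR-1956, at 1.59, took the place of miR-365-2-5p. These distances over 4 libraries of unequal depth are a description of the profiles.

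miR-147-3p and miR-155-5p belong to a list of 16 miRNAs known to be induced by inflammatory signals, of which 15 were in the table. In imDC against HSC, 9 of the 11 list members compared were higher and 0 lower, with a median log2 ratio of 2.82, beside 26.2% higher, 28.3% lower and a median of -0.12 over all miRNAs compared. Among these, miR-155-5p, miR-9-5p, miR-9-3p and miR-147-3p reached the level of the fold rule through imDC alone. They could thus only be higher. The other higher list members reached that level in HSC too. The higher ones included miR-155-5p, a regulator of dendritic cell function, at 54.9-fold, and miR-146b-5p, a brake on Toll-like receptor signalling, at 14.4-fold. miR-146a-5p, which acts on the same signalling, was at 1105 ppm in imDC and 1561 ppm in HSC and was not called.

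In maDC against imDC, 1 of the 11 list members compared was higher and 2 were lower, with a median of -0.43. Over all miRNAs compared 9.38% were higher and 45.0% lower, with a median of -0.88, so the share of higher members was near that of all miRNAs. miR-221-5p was 2.88-fold higher in maDC, while miR-146a-5p was 3.57-fold lower and miR-9-5p 4.76-fold lower. In DCreg against maDC, 1 was higher, 6 were lower and 4 were not called, with a median of -1.20, beside 20.3% higher, 28.3% lower and a median of -0.34 over all miRNAs compared. Of the lower ones, miR-9-5p, miR-9-3p and miR-147-3p reached the level of the fold rule through maDC alone. They could thus only be lower. The other lower ones, miR-155-5p, miR-221-3p and miR-222-3p, reached that level in DCreg too. miR-155-5p was 11.7-fold lower in DCreg, miR-147-3p was 7.17-fold lower and miR-222-3p was 3.44-fold lower, whereas miR-146a-5p was 3.61-fold higher. miR-21-5p, the most abundant member of the list in imDC, was at 61873 ppm in DCreg and 71808 ppm in maDC and was not called.

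The nearest miRNA gene compared on the chromosome, Mir22 at chr11:75463716-75463810, is 290 kb away on the same strand. Its arm miR-22-3p was at 436 ppm in HSC, 2332 ppm in imDC, 1122 ppm in maDC and 1340 ppm in DCreg. Like the cluster it was lowest in HSC, but in DCreg it was not called lower than in maDC.

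In imDC and maDC the 2 hairpins favoured opposite arms beyond counting error. In DCreg both gave more 3p reads, and the HSC interval of Mir212 included an equal split. The 3p arm gave 87.5% (74.8 to 95.3) of the Mir132 arm reads in HSC, 88.6% (87.1 to 89.9) in imDC, 88.9% (87.0 to 90.5) in maDC and 81.7% (75.2 to 87.0) in DCreg. The 3p arm of Mir212 gave 32.3% (16.7 to 51.4) in HSC, 42.8% (40.1 to 45.5) in imDC, 42.3% (39.4 to 45.2) in maDC and 66.7% (55.5 to 76.6) in DCreg. Mir132 was thus mainly a 3p hairpin in each library, while Mir212 gave more 5p than 3p reads in HSC, imDC and maDC and more 3p than 5p reads in DCreg.

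The 3p share of Mir212 was 24.4 percentage points higher in DCreg than in maDC. Of 141 other arm pairs with at least 50 reads in both libraries, 4 changed more, and the median change without sign was 0.248 points. A pair that uses almost only a single arm can move little on this scale. The other pairs were not matched to Mir212 in their starting share or read number. Against imDC the share in DCreg was 23.9 points higher, with 9 of 145 other pairs changing more. The change rests on 84 reads of Mir212 in DCreg. By the deposited values the share was 62.7% in DCreg and 45.2% in maDC. Counting only reads with no 3′ base unmatched to the mature sequence gave 51.5% in DCreg and 42.6% in maDC. That rule also drops reads with encoded bases beyond the annotated end. Reads without a tail by the hairpin numbered 17 for 3p and 20 for 5p in DCreg, and 189 and 409 in maDC. Among untailed reads, 5p thus outnumbered 3p in DCreg too, unlike among all arm reads. The 3p share of Mir132 moved the other way, 7.19 points lower in DCreg than in maDC, with 15 of the 141 pairs changing more.

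**Figure D3:**
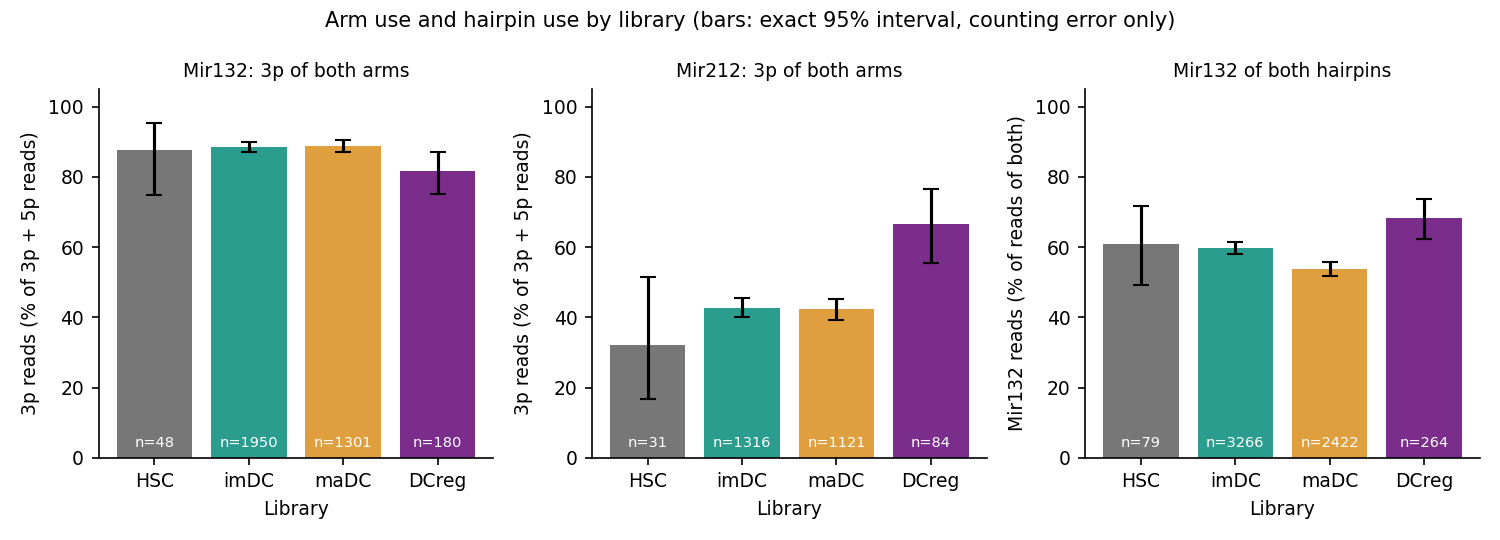
Share of the 3p arm in the arm reads of Mir132 and of Mir212, and share of Mir132 in the reads of both hairpins, in percent, with exact 95% counting intervals. Mir212 stands at 66.7% 3p in DCreg and between 32.3% and 42.8% in HSC, imDC and maDC.

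Mir132 gave 60.8% (49.1 to 71.6) of the reads of both hairpins in HSC, 59.7% (58.0 to 61.4) in imDC, 53.7% (51.7 to 55.7) in maDC and 68.2% (62.2 to 73.8) in DCreg. The interval of maDC lay below those of imDC and DCreg. Reads of the 3p arms, which share the seed AACAGUC, made up 65.8% of all cluster reads in the HSC library, 70.1% in imDC, 67.3% in maDC and 76.9% in DCreg. Within that seed family miR-132-3p outnumbered miR-212-3p 4.20-fold in HSC, 3.07-fold in imDC, 2.44-fold in maDC and 2.63-fold in DCreg.

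Besides the arms, the loop of Mir132 was found among the reads. The commonest loop sequence is shown because it ends 2 bases inside the 3p arm and begins 1 base inside the 5p arm, and so fills the space between them.
Mir132 loop: cugugggaaccggaggua
It is 18 nt long, covers bases 26 to 43 of the hairpin and had 128 copies in all. In the transcripts of GENCODE M21 it occurs in Mir132 only. Loop reads numbered 4 in the HSC library, 75 in imDC, 30 in maDC and 31 in DCreg. They were 7.69% (2.14 to 18.5) of the reads of the hairpin in HSC, 3.70% (2.92 to 4.62) in imDC, 2.25% (1.53 to 3.20) in maDC and 14.7% (10.2 to 20.2) in DCreg. The share in DCreg was above those in imDC and maDC beyond counting error and overlapped that in HSC. All 31 loop reads in DCreg were copies of the sequence shown, whose 18 nt lie at the lower edge of the gel cut. Among other miRNAs with at least 100 reads, the median share of reads short by at least 2 bases also differed. It was 8.61% in DCreg, 3.36% in maDC and 9.36% in imDC. The part of size selection in the loop share was not tested. Mir212, with 1121 arm reads in maDC and 1316 in imDC, gave 1 loop read in maDC and 0 in the other libraries. The intervals of these 0 counts reach up to a share of 11.2% in HSC, 0.280% in imDC and 4.30% in DCreg.

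**Figure D4:**
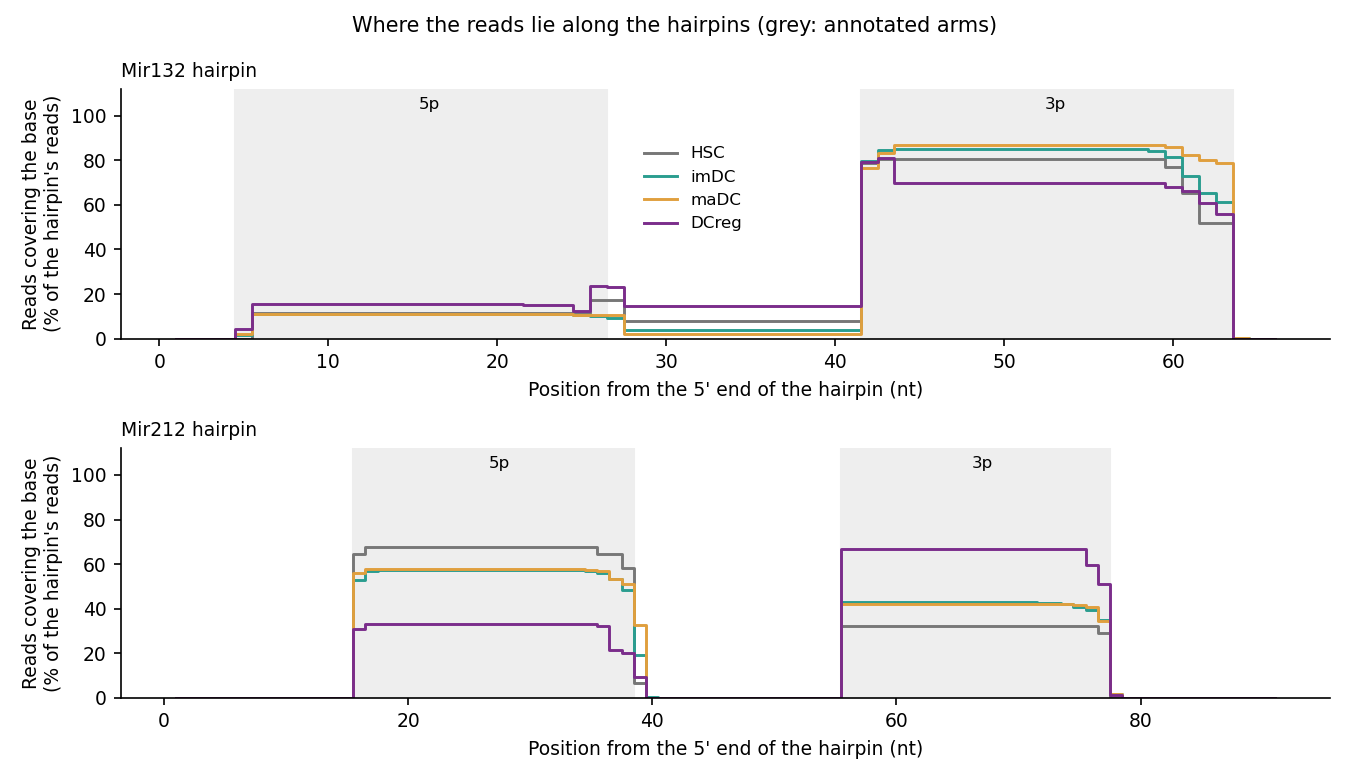
Percent of the reads of each hairpin that cover each base, counted from the 5′ end of the hairpin, with the annotated arms in grey. Mir132 shows reads across its loop in all 4 libraries, at 14.7% of its reads in DCreg and 2.25% in maDC, and base 39 of Mir212, 1 base past its 5p arm, is covered by 32.5% of its reads in maDC and 19.2% in imDC.

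Most miR-132-5p reads did not begin at the annotated base. Of 407 reads over the 4 libraries, 333, or 81.8%, began 1 base further in. The share was 83.9% of 223 reads in imDC, 80.0% of 145 in maDC and 72.7% of 33 in DCreg, and all 6 reads in HSC began there. The commonest read is shown beside the annotated form, with the seed of each in capitals.
miR-132-5p as annotated: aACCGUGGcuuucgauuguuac
commonest miR-132-5p read: aCCGUGGCuuucgauuguuacu
The seed of the shifted form, CCGUGGC, belongs to no mature miRNA of the table. The commonest read had 5 copies in the HSC library, 113 in imDC, 108 in maDC and 18 in DCreg.

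Such a shift was unusual among the miRNAs of these libraries. Among other miRNAs with at least 100 reads, the median share of reads beginning at the annotated base was between 98.5% and 99.3%. In imDC, 3 of 182 other miRNAs had a lower share than miR-132-5p, which stood at 16.1%. In maDC this was so of 5 of 138, beside 29 of 145 reads for miR-132-5p, and in DCreg of 6 of 119, beside 27.3%. miR-132-3p began at the annotated base in 88.1% of reads in the HSC library, 89.2% in imDC, 85.6% in maDC and 92.5% in DCreg. miR-212-3p did so in at least 98.2% of reads and miR-212-5p in at least 92.6% in each library.

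At the 3′ end, both 3p arms often carried bases that the hairpin does not encode. Such tails were on 57.1% of miR-132-3p reads in the HSC library, 43.4% in imDC, 61.6% in maDC and 68.7% in DCreg. On miR-212-3p they were found on 50.0%, 48.3%, 60.1% and 69.6% of reads in the same order. The median over other miRNAs with at least 100 reads was between 15.1% and 18.8%. Tails on miR-132-5p were rarer, on 4.93% of reads in imDC, 2.76% in maDC and 3.03% in DCreg.

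Much of this was uridine. Tails of U alone were on 38.1% of miR-132-3p reads in HSC, 29.6% (27.4 to 31.8) in imDC, 47.5% (44.6 to 50.4) in maDC and 49.7% (41.3 to 58.0) in DCreg. The share was higher in maDC than in imDC beyond counting error, while maDC and DCreg overlapped. In maDC only 1 of 138 other miRNAs had a higher share, and the median of these was 4.57%, beside 2.999% in imDC. On miR-212-3p the share was 30.0% of 10 reads in HSC, 25.4% (21.9 to 29.2) in imDC, 32.9% (28.7 to 37.3) in maDC and 46.4% (33.0 to 60.3) in DCreg.

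miR-212-5p carried U tails on 13.9% (11.5 to 16.6) of reads in imDC and 29.4% (25.9 to 33.0) in maDC, a difference beyond counting error, and on 21.4% of 28 reads in DCreg. On miR-132-5p they were found on 1 read in the HSC library, 1 in imDC, 0 of 145 in maDC and 0 of 33 in DCreg. The intervals of these 0 counts reach up to a share of 2.51% in maDC and 10.6% in DCreg. The annotated miR-132-3p and the form with 1 added U (in capitals) are shown because the commonest read was not the same form in every library.
miR-132-3p, no tail: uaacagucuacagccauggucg
miR-132-3p, U tail: uaacagucuacagccauggucgU
In imDC the form without a tail led with 541 copies, or 31.3% of the reads, ahead of 406 for the U form. In maDC the U form led with 394 copies, or 34.1%, ahead of 359, and in DCreg it led with 56 copies, or 38.1%, ahead of 32. The U form was also ahead in the HSC library, with 12 copies against 11, so only in imDC did the form without a tail lead. Reads of miR-132-3p shorter than the annotated form by at least 2 bases made up 3.72% in maDC, against 20.4% in imDC. The median of the other miRNAs also differed between these libraries in that measure, at 3.36% in maDC against 9.36% in imDC.

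**Figure D5:**
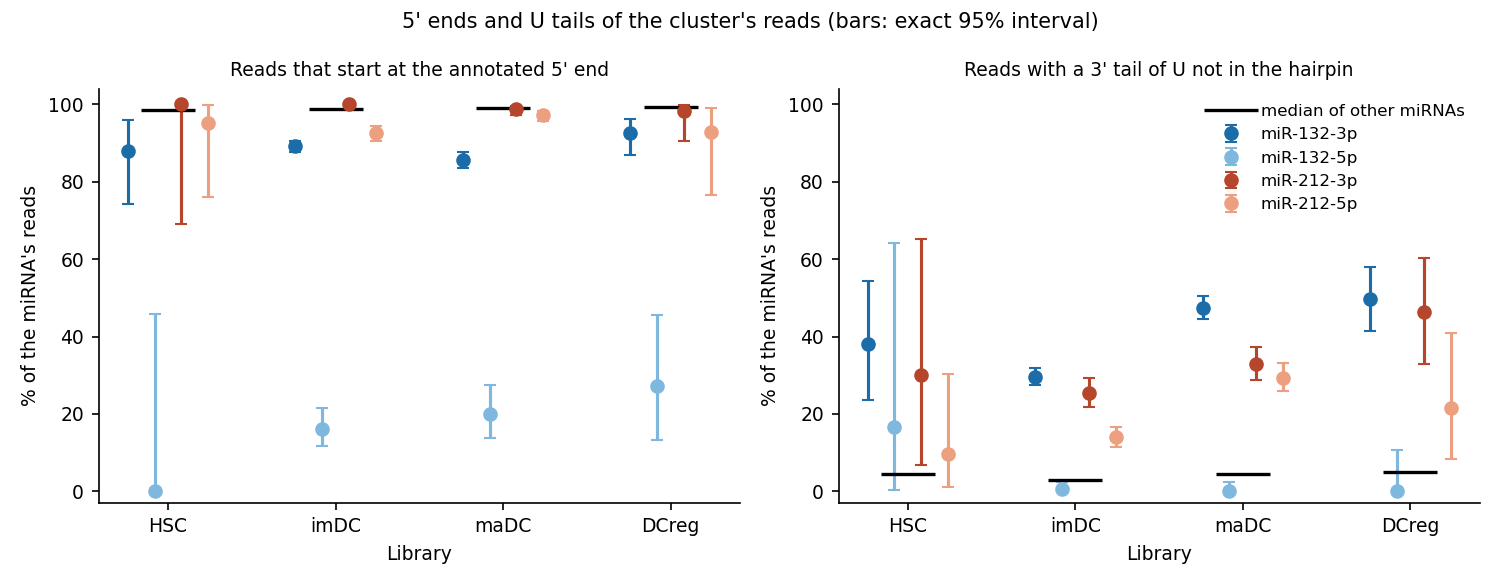
Share of each member's reads, in percent, that begin at the annotated 5′ base and that carry a 3′ tail of U alone, per library, with exact 95% counting intervals and the median of other miRNAs with at least 100 reads. miR-132-5p lies far under the others in its 5′ ends (16.1% in imDC), and both 3p arms lie above the median in U tails, miR-132-3p at 47.5% in maDC.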

How the data were processed

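Small RNA of 18 to 30 nt was gel purified and amplified for 12 PCR cycles, per the labels' protocols. Per the submitters' processing notes, reads were compared with miRBase release 19; the sources used here do not name the aligner or build. The deposited table gives 1 whole-number score for each of 1195 entries (1078 mature miRNAs, 715 hairpins), which the authors call normalised; how is not given. Scores were scaled to a column total of 1000000. Ratios used a pseudocount of 0.5, and called means at least 2-fold with 100 ppm in 1 library.

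The deposited sequence lists, with copy counts made by the authors, held 6277096 (HSC), 6554086 (imDC), 6572858 (maDC) and 4904897 (DCreg) reads of 16 to 39 nt. Reads were assigned to mature miRNAs by an exact match of at least 16 nt with a 5′ end within 2 nt and up to 5 unmatched 3′ bases. Ties were divided equally. This placed 82.8%, 80.4%, 84.0% and 80.2%. Tails were bases differing from the RefSeq hairpin. Reads copied by PCR without molecular identifiers cannot stand for single molecules, so intervals (95%, Clopper-Pearson or conditional) cover counting error only. Where a limit is given for a 0, it is the upper end of the 95% interval.

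Alternatives were other scalings, level filters, pseudocounts and match rules. The genes named were the members, the 5 nearest profiles of each 3p arm, the inflammation list, Mir22 and cell markers. Members and lists were chosen with earlier results of these data known. Python 3.11.15, numpy 2.4.6, pandas 2.3.3 and scipy 1.17.1 were used, and the read matching was tested on simulated data.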

Additional observations from a re-analysis of the deposited data

How the results depend on the processing

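Under other scalings, pseudocounts and recounting, the 4 members kept their direction in 28 of 28 log2 ratios of each comparison but maDC against imDC, where 19 of 28 kept it. The median log2 ratio of the 4 members was, with TMM, 0.34 for maDC against imDC, 5.42 for maDC against HSC, -2.10 for DCreg against imDC and 3.42 for DCreg against HSC. With median-of-ratios it was 0.50, 5.28, -2.04 and 3.19 in the same order. Without the 5 most abundant miRNAs in the total it was -0.059 for maDC against imDC, -2.48 for DCreg against imDC and 2.97 for DCreg against HSC. Per all reads it was -0.44 for maDC against imDC, -2.84 for DCreg against maDC and -3.28 for DCreg against imDC. By recounted reads it was -0.48 for maDC against imDC, 5.22 for imDC against HSC and -3.01 for DCreg against imDC, and the cluster stood at 15.2, 620, 438 and 67.1 ppm in HSC, imDC, maDC and DCreg.

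Counts of called miRNAs moved by over 1.5 times as follows. In maDC against imDC, 27 were higher and 46 lower with TMM, 30 and 37 with median-of-ratios, 8 were higher per all reads and 2 by recounted reads. Recounting also gave 17 higher in DCreg against imDC and 27 lower in imDC against HSC. With a level of 10 ppm, the higher and lower counts were 98 and 100 for imDC against HSC, 35 and 151 for maDC against imDC, 76 and 169 for maDC against HSC, 72 and 85 for DCreg against maDC, 63 and 187 for DCreg against imDC and 75 and 175 for DCreg against HSC. Without a level filter they were 285 and 294, 141 and 419, 210 and 440, 248 and 224, 204 and 416, and 213 and 372.

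The 3p share of Mir132 was 85.4% in imDC, 86.2% in maDC and 68.8% in DCreg by deposited values, and that of Mir212 was 47.9% in imDC. With the 5′ end exactly as annotated, the 3p share of Mir132 was 100% in the HSC library, 97.7% in imDC, 97.2% in maDC and 93.8% in DCreg. Mir132 then gave 55.6% of the reads of both hairpins in imDC and 48.2% in maDC. This rule leaves out the 333 of 407 miR-132-5p reads that began 1 base further in. With no unmatched 3′ base, the 3p share of Mir132 was 100% in the HSC library, 90.9% in imDC and 93.1% in maDC, that of Mir212 was 37.3% in imDC and 51.5% in DCreg, and Mir132 gave 42.9% of both in HSC. Comparing 3′ bases with the mature sequence in place of the hairpin gave tails on 100% of miR-132-5p reads in the HSC library, 56.1% in imDC, 77.2% in maDC and 57.6% in DCreg, and on 37.3% of miR-212-5p reads in imDC and 62.3% in maDC, because encoded bases beyond the annotated end then count as tails. The rule of no 3′ base unmatched to the mature sequence drops reads with these encoded bases as well. The cause of the remaining moves was not tested.

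No paired analysis was possible because each cell type had 1 library and no replicate numbers were shared, and no replicate could be left out. Intervals cover counting error within a library and not the spread between animals or cultures. HSC values rest on 6 to 42 reads a member, and shares of ends there are imprecise. The deposited normalisation is unknown. The libraries also differ in culture time and selection.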

Other observations

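The deposited scores of the members exceeded their recounted reads. miR-132-3p had 1.45 units per recounted read in the HSC library, 1.38 in imDC, 1.45 in maDC and 1.26 in DCreg. miR-132-5p had more, at 2.17, 1.83, 1.85 and 2.55 in the same order. When the reads of the Mir132 loop were added to those of miR-132-5p, the scores came to 1.30 units per read in the HSC library, 1.37 in imDC, 1.53 in maDC and 1.31 in DCreg. Whether the authors' counting took loop reads as miR-132-5p was not tested. The smaller deposited difference of miR-132-5p between DCreg and maDC, 1.94-fold lower against 3.13-fold by recounted reads, goes with these values.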
